A study of Mus musculus with 50 samples.

Results

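Astrocyte-enriched genes are genes that astrocytes transcribe at higher levels than neurons and other cells of the cortex. The list held 32 such genes, taken by gene symbol, and each gene was read from the probe with the highest mean signal over all 50 arrays when it had several. Probes were found for 31 of the 32, of 17849 genes with a probe on the array. Id3 and Id4 carried the older symbols Idb3 and Idb4 in the file, Etnppl was listed as Agxt2l1 and Plpp3 as Ppap2b, and Cpe, a peptide-processing enzyme, was not analysed here. Of the 31 genes, 28 passed the filter on dim probes and were tested among 10087 genes. The filter asked for a signal above background on at least 9 of the 50 arrays, and 24 of the 28 were above background on all 50.

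RNA was measured on Illumina MouseRef-8 arrays in synaptosomes, the pinched-off nerve terminals that can be isolated from homogenised brain, here from the frontal cortex, with 1 array per mouse. All mice were 17 to 21 days old on a CD1 background, and were either constitutive knockouts of Sod2, the superoxide dismutase of the mitochondrial matrix, or wild type. The groups were low-dose knockouts (n = 10) and high-dose knockouts (n = 10), and untreated (n = 9), low-dose (n = 11) and high-dose (n = 10) wild types, the doses being 1 mg/kg (low) and 30 mg/kg (high) of a salen manganese antioxidant that is named EUK8 in the titles and EUK189 in the treatment field. All knockouts had received the compound, so nothing here describes an untreated knockout, and the labels name neither the allele nor how the compound was given.

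Astrocytes take up potassium, water and glutamate around synapses, are coupled to each other by connexin channels, and send end-feet to blood vessels. They also secrete proteins that act on vessels, matrix and synapses, and in injury they can raise intermediate filaments such as Gfap. Their fine processes wrap cortical synapses, and fragments of these processes travel with nerve terminals when synaptosomes are prepared. In a mixed preparation of this kind, fewer astrocyte fragments and less RNA per fragment cannot be told apart.

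Upstream sequences are shown for the 3 genes with the largest rises in low-dose knockouts (Agt, Etnppl and Timp4). That of the gene with the largest fall (Gfap) is shown too. No link between these sequences and the changes was tested. Each is the 250 bases before the transcription start that RefSeq gives, on the strand of the gene and written 5′ to 3′, in GRCm38.p6. Agt lies on the minus strand at chr8:124569707-124569956, Etnppl on the plus strand at chr3:130617198-130617447 (the first of its start sites), Timp4 on the minus strand at chr6:115252206-115252455 and Gfap on the minus strand at chr11:102897201-102897450. Capitals mark matches on either strand to an antioxidant element (TGACNNNGC), a STAT core (TTCNNNGAA) or a Notch effector core (TGGGAA).
Agt: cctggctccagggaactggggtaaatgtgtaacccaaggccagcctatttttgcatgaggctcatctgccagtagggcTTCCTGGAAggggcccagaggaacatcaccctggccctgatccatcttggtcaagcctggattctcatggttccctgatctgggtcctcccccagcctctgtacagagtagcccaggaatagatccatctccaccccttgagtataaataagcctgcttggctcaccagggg
Etnppl: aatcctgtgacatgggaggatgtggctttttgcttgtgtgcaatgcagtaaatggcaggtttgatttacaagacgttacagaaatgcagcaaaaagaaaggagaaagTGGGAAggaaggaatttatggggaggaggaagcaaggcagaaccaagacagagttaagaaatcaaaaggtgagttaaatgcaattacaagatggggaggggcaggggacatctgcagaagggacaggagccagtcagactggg
Timp4: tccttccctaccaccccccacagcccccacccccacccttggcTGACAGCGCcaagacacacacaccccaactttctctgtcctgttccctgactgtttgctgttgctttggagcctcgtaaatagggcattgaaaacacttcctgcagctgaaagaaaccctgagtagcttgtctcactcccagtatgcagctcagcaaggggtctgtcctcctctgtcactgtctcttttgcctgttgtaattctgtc
Gfap: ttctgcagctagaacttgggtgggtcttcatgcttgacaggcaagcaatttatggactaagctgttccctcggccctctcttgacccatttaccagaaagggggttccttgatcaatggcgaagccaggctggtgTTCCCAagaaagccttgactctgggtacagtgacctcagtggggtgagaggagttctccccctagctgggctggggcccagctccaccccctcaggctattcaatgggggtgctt

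The Agt window held 1 STAT core, 172 bases before the start, and such a core was present in 7.0% of the 32851 RefSeq windows of that length. The Timp4 window held 1 antioxidant element, found in 10.2% of all windows. Etnppl and Gfap each held 1 Notch effector core, a run of letters found in 21.6% of all windows. Of the 31 windows that RefSeq gave for 25 of the genes, 11 held a Notch effector core, 5 an antioxidant element and 3 a STAT core. An E-box (CANNTG), the site class whose binding proteins Id3 and Id4 inhibit, was in 21 of the 31 against 66.2% of all windows, a glucocorticoid receptor core (AGAACA) in 1 of the 31 against 16.1%, and an amino acid response core (TGATGNAAN) in 0 of the 31 against 3.4%. A STAT core and a Notch effector core can overlap, and windows of a gene with several starts share bases. A match describes letters and does not show a bound site.

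Array medians ran from 54.12 to 78.02 signal units, and between 10197 and 12622 of 25697 probes were above background on an array. The Sod2 probe gave signal in every group, with lowest, median and highest log2 levels of 9.63, 10.17 and 10.62 in low-dose knockouts and 9.48, 9.79 and 10.15 in low-dose wild types. It ran from 9.66 to 10.48 in high-dose knockouts, against 9.39 to 10.13 in high-dose wild types and 9.49 to 9.84 in untreated wild types. The Sod2 signal was thus higher, not lower, in low-dose knockouts (log2 change 0.41 ± 0.10, adjusted p = 0.00117). Where this probe lies relative to the altered part of the gene was not stated in the labels or files, so it did not check the genotype, and every direction below rests on the labels. Levels below are normalised log2 signals, compared only within a probe, and changes are fitted log2 changes ± standard error with the group and the chip in 1 limma model. A change counts as risen or fallen at a Benjamini-Hochberg adjusted p under 0.05 over all 13463 tested probes.

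Among the astrocyte-enriched genes, 11 rose and 4 fell in low-dose knockouts when set against low-dose wild types, and 13 did not pass the test. That is 15 of 28, where 21.9% of all tested genes were called, 10.6% rising and 11.4% falling. Among genes above background on every array the share called was 31.2%. The median change of the 28 was 0.20, against -0.01 over all tested genes. The largest rises were those of Agt, Etnppl and Timp4, followed by Slco1c1 and Id3, and the falls were those of Gfap, Ntsr2, S100b and Plpp3.

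Agt encodes angiotensinogen, the precursor of angiotensin peptides, which astrocytes make in the brain. Its lowest, median and highest levels were 7.87, 8.50 and 9.24 in low-dose knockouts, against 5.90, 6.38 and 7.0 in low-dose wild types. Every low-dose knockout lay above every low-dose wild type. The change was 2.06 ± 0.14, a 4.16-fold rise (adjusted p = 3.41e-15). At the high dose Agt had levels of 6.92, 7.22 and 8.20 in knockouts, against 6.0, 6.37 and 6.69 in wild types, again without overlap, and the rise was 0.95 ± 0.14, or 1.94-fold (adjusted p = 8.27e-05). Groups did not overlap for 1.57% of tested genes in the low-dose contrast and for 0.0892% in the high-dose contrast.

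Timp4, an inhibitor of matrix metalloproteinases, was the other gene without overlap between the genotypes at the low dose. Its levels were 9.62, 9.81 and 10.79 in low-dose knockouts and 8.36, 8.89 and 9.44 in low-dose wild types, a rise of 1.02 ± 0.12 (2.03-fold, adjusted p = 1.2e-08). At the high dose Timp4 averaged 8.97 ± 0.25 in knockouts and 8.84 ± 0.21 in wild types (SD, n = 10 each), a change of 0.15 ± 0.12 that did not pass (adjusted p = 0.7). Htra1, a secreted serine protease, had levels of 9.24, 9.83 and 10.53 in low-dose knockouts and 9.13, 9.47 and 10.04 in low-dose wild types. It rose by 0.46 ± 0.11 (adjusted p = 0.00244) although the groups overlapped. The 2 other secreted proteins did not pass: the chaperone clusterin (Clu) changed by -0.25 ± 0.12 (adjusted p = 0.163) and the matrix protein hevin (Sparcl1) by 0.12 ± 0.15 (adjusted p = 0.643).

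**Figure D1:**
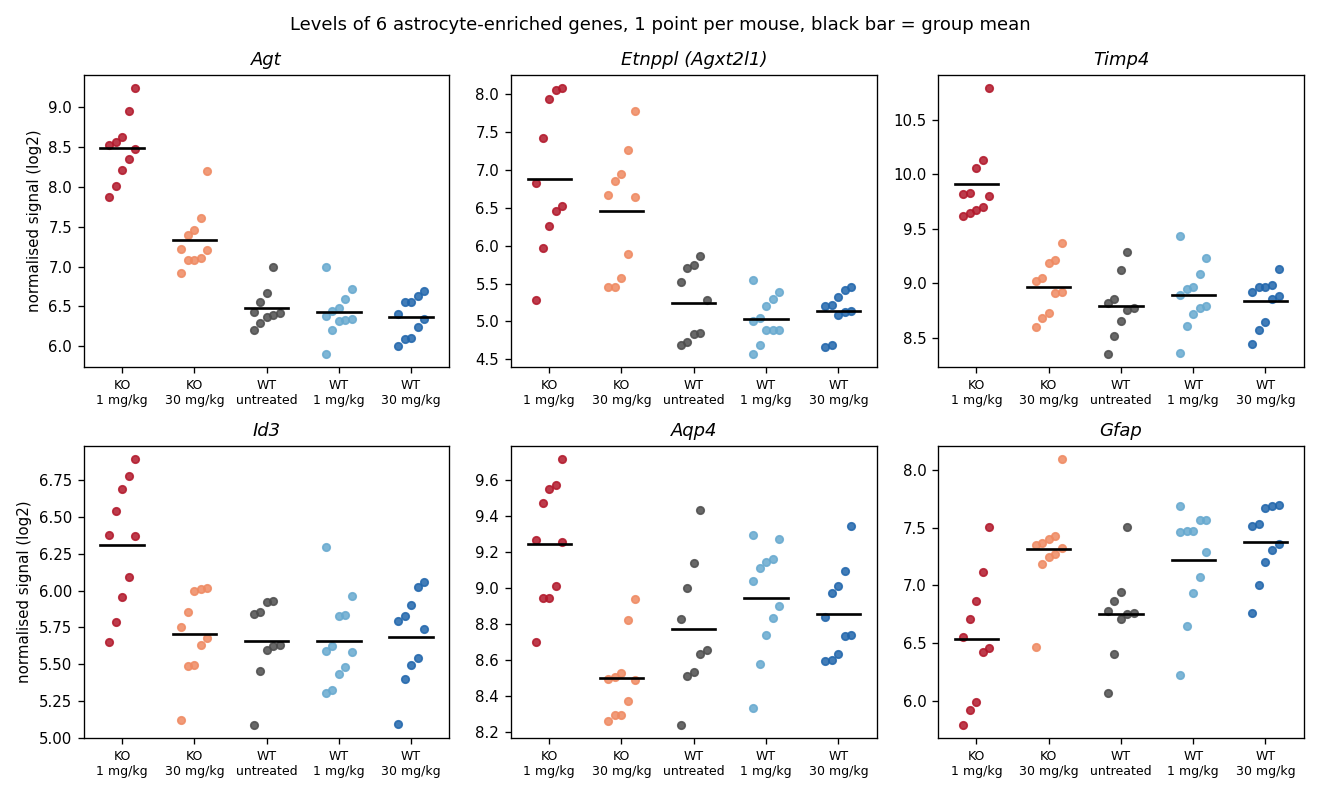
Normalised log2 signal (y axis, a separate scale for each gene) of 6 astrocyte-enriched genes in the 5 groups (x axis: knockout, KO, at 1 and 30 mg/kg, then wild type, WT, untreated and at 1 and 30 mg/kg). Each point is 1 mouse and each black bar a group mean; Agt and Timp4 of low-dose knockouts lie above every wild type, Etnppl is spread widely in both knockout groups, and Gfap is lowest on average in low-dose knockouts.

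Etnppl encodes ethanolamine-phosphate phospho-lyase, which breaks down phosphoethanolamine. It was above background on 10 of 10 low-dose and 10 of 10 high-dose knockouts, but on 5 of 9 untreated, 4 of 11 low-dose and 4 of 10 high-dose wild types. Its levels were 5.28, 6.67 and 8.08 in low-dose knockouts, against 4.57, 5.0 and 5.55 in low-dose wild types. The lowest low-dose knockouts reached into the wild-type range while the highest stood far above it, and the standard deviation was 0.96 in those knockouts, against 0.30 in low-dose wild types. The rise was 1.84 ± 0.28 (3.58-fold, adjusted p = 2.04e-06). At the high dose the levels were 5.46, 6.66 and 7.78 in knockouts and 4.67, 5.17 and 5.46 in wild types, a rise of 1.34 ± 0.28 (2.53-fold, adjusted p = 0.00845). A second Etnppl probe gave a low-dose change of 1.55 (adjusted p = 2.68e-05) and a high-dose change of 1.04, which did not pass (adjusted p = 0.0543). The added offset understates folds of such dim probes.

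Of the other enzymes, Acsbg1, an acyl-CoA synthetase for long-chain fatty acids, rose by 0.48 ± 0.10 (adjusted p = 0.000509). It had levels of 9.83, 10.2 and 10.53 in low-dose knockouts and 9.24, 9.74 and 10.06 in low-dose wild types, and all 10 knockouts exceeded the mean of the wild types. A second Acsbg1 probe gave 0.51. Plpp3, a phosphatase of bioactive lipids, fell by 0.34 ± 0.10 (adjusted p = 0.00706), with levels of 10.62, 11.21 and 11.47 in low-dose knockouts, against 11.31, 11.42 and 11.82 in low-dose wild types. All 10 low-dose knockouts lay below the wild-type mean of Plpp3, but a second probe changed by -0.29 and did not pass (adjusted p = 0.323). Entpd2, which hydrolyses extracellular ATP, changed by 0.08 ± 0.11 (adjusted p = 0.675).

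Of the 4 tested junction and channel genes, 3 rose and 0 fell in low-dose knockouts. Gjb6, connexin 30, had levels of 9.67, 10.53 and 10.98 in low-dose knockouts and 9.47, 10.06 and 10.55 in low-dose wild types, a rise of 0.53 ± 0.15 (adjusted p = 0.00855). Gja1, connexin 43, the main astrocyte gap junction protein, had levels of 11.71, 12.13 and 12.63 in low-dose knockouts, against 11.36, 11.73 and 12.23 in low-dose wild types, a rise of 0.38 ± 0.11 (adjusted p = 0.00817). Both connexins overlapped between the groups, and 8 of 10 knockouts for Gjb6 and 9 of 10 for Gja1 exceeded the mean of the wild types. Cldn10, a claudin, rose by 0.39 ± 0.12 (adjusted p = 0.0148), with levels of 10.7, 11.3 and 11.69 in low-dose knockouts and 10.34, 10.87 and 11.51 in low-dose wild types. Each of 2 further Cldn10 probes rose as well, by 0.50 and 0.46. Aqp4, the water channel of astrocyte end-feet, changed by 0.27 ± 0.12 and did not pass (adjusted p = 0.116), with levels of 8.70, 9.27 and 9.72 in low-dose knockouts and 8.33, 9.04 and 9.30 in low-dose wild types. Mlc1, a membrane protein of end-feet, was above background on 0 of 50 arrays and was not tested.

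Slco1c1, a transporter of thyroid hormone and organic anions, rose by 0.92 ± 0.34 (adjusted p = 0.0439). Its levels were 6.29, 7.56 and 9.38 in low-dose knockouts and 5.56, 6.83 and 7.30 in low-dose wild types, with broad overlap. The Slco1c1 call was kept under 7 of 12 other processing settings (adjusted p up to 0.102). It was also lost without low-dose knockout replicate 23, the highest array, where the change was 0.74 ± 0.33 (adjusted p = 0.109). Slc14a1, a urea transporter, changed by -0.04 ± 0.10 (adjusted p = 0.817) and was above background on 33 of 50 arrays. Slc4a4, the sodium bicarbonate cotransporter, was above background on 6 arrays and was not tested.

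Among receptors and surface proteins, Gpr37l1, a glial orphan receptor, rose by 0.42 ± 0.11 (adjusted p = 0.00349). It had levels of 9.50, 9.96 and 10.42 in low-dose knockouts and 9.11, 9.52 and 9.94 in low-dose wild types. Ntsr2, a neurotensin receptor, fell by 0.46 ± 0.16 (adjusted p = 0.039), with levels of 9.98, 10.73 and 11.33 in low-dose knockouts, against 10.5, 11.3 and 11.86 in low-dose wild types. The Ntsr2 call was kept under 8 of 12 other processing settings. Without the 5 dimmest arrays its change was -0.36 and did not pass (adjusted p = 0.161). The growth factor receptor Fgfr3 (-0.01 ± 0.19) and the adhesion molecule Vcam1 (-0.12 ± 0.16) did not pass, and F3, tissue factor, was above background on 1 array and was not tested.

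Gfap, the intermediate filament protein of astrocytes, had levels of 5.79, 6.51 and 7.51 in low-dose knockouts, against 6.22, 7.47 and 7.68 in low-dose wild types. The groups overlapped, with 9 of 10 knockouts below the wild-type mean, and Gfap fell by 0.71 ± 0.18 (1.63-fold, adjusted p = 0.00257). Vim, the other filament gene, changed by 0.33 ± 0.14 and did not pass (adjusted p = 0.0945). S100b, a calcium-binding protein, had levels of 5.65, 6.25 and 6.85 in low-dose knockouts and 5.88, 6.54 and 7.23 in low-dose wild types, and fell by 0.36 ± 0.10 (adjusted p = 0.00898). The S100b call was kept under 9 of 12 other processing settings. With groups alone in the model, without the chip, the S100b change was -0.23 (adjusted p = 0.417). Fabp7, a fatty acid-binding protein of young astrocytes, and Ndrg2 did not pass, with changes of 0.21 ± 0.13 and -0.08 ± 0.14.

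Of the 4 transcription regulators, Id3, an inhibitor of basic helix-loop-helix factors, rose by 0.68 ± 0.14 (1.6-fold, adjusted p = 0.000237). Its levels were 5.65, 6.37 and 6.90 in low-dose knockouts and 5.30, 5.59 and 6.30 in low-dose wild types, and 9 of 10 knockouts exceeded the mean of the wild types. Its relative Id4 changed by -0.01 ± 0.14, with an interval of -0.29 to 0.27 at 95% confidence. Sox9, which specifies astrocytes, and the Notch target Hes5 changed by 0.19 ± 0.12 and 0.06 ± 0.14, and neither passed.

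At the high dose, 2 of the 28 genes rose and 0 fell, where 0.684% of all tested genes were called, 0.446% rising and 0.238% falling. These were Agt and Etnppl, with the values given above. For Gfap the high-dose change was -0.06 ± 0.18, with an interval of -0.41 to 0.29. The intervals of Id3 (-0.25 to 0.30), Acsbg1 (-0.24 to 0.18), Cldn10 (-0.22 to 0.25) and Gpr37l1 (-0.20 to 0.23) likewise spanned 0. Those of Gja1 (0.02 to 0.45) and Gjb6 (0.05 to 0.65) did not span 0 before adjustment, and neither gene passed (adjusted p = 0.392 and 0.347). Without the 5 dimmest arrays only Agt was called at the high dose, and Etnppl had a change of 1.13 ± 0.28 (adjusted p = 0.0682).

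**Figure D2:**
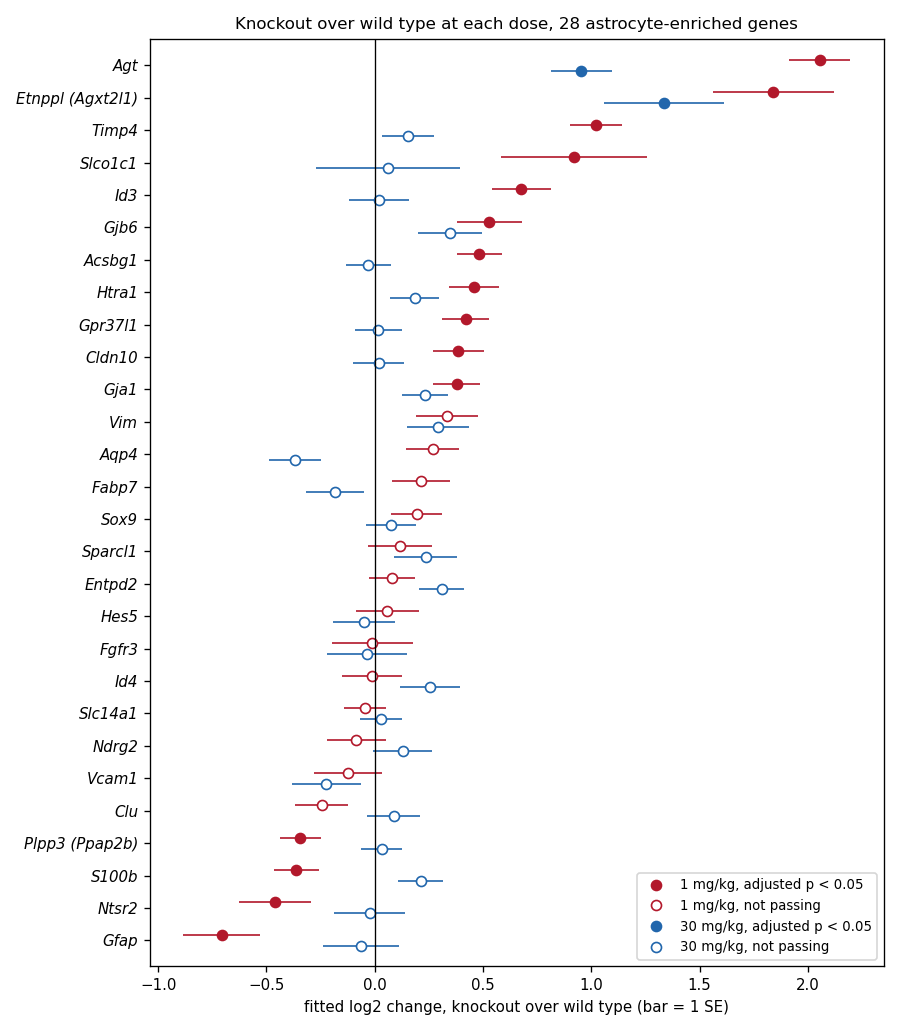
Fitted log2 change of the 28 tested genes, knockout over wild type (x axis), at 1 mg/kg (red) and 30 mg/kg (blue), with genes down the y axis in the order of the low-dose change. Bars are 1 standard error and filled points passed an adjusted p of 0.05; 15 red points are filled, and the filled blue points are Agt and Etnppl.

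The difference between the genotype changes at the 2 doses was tested directly. It passed for 6 of the 28 genes, where 3.07% of all tested genes were called, 2.1% with a lower and 0.972% with a higher change. In 5 of them the genotype change was lower at the high dose: Agt by -1.10 ± 0.20 (adjusted p = 0.000546), Timp4 by -0.87 ± 0.17 (adjusted p = 0.00135), Id3 by -0.66 ± 0.19 (adjusted p = 0.0465), Aqp4 by -0.64 ± 0.17 (adjusted p = 0.0281) and Acsbg1 by -0.51 ± 0.15 (adjusted p = 0.0396). S100b differed the other way, by 0.57 ± 0.15 (adjusted p = 0.0185), but with groups alone in the model its difference was 0.35 (adjusted p = 0.539). Among 12 other settings the difference kept its call in 8 for Acsbg1 (adjusted p up to 0.0765) and 9 for Id3 (up to 0.091). It was kept in 9 for S100b (up to 0.539) and 11 for Aqp4 (up to 0.0643). For Agt and Timp4 it was kept in all 12. Neuron markers lay above 0 in the same difference for 9 of 9, with a median of 0.39 and 0 called, and their part was not tested. For Etnppl the difference between doses did not pass, nor did it for Gfap (0.65 ± 0.25, adjusted p = 0.154). Aqp4 had genotype changes of 0.27 in the low-dose and -0.37 ± 0.12 in the high-dose contrast, and passed in neither (adjusted p = 0.165 for the high-dose change).

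High-dose knockouts were then compared with low-dose knockouts, the contrast that shares both groups with those above. Of the 28 genes, 9 fell and 4 rose, and 21.1% of all tested genes were called, 10.6% falling and 10.5% rising. The median change was -0.22, against 0.01 over all tested genes. Of 35 other astrocyte genes 11 fell and 1 rose, while 5 of 9 neuron markers rose and 0 fell (median 0.51), and 2 of 12 oligodendrocyte markers rose and 0 fell (median 0.30). The part of these other cell types in the dose changes was not tested. Agt fell by 1.16 ± 0.14 (adjusted p = 3.77e-08) and Timp4 by 0.95 ± 0.12 (adjusted p = 7.08e-08). Timp4 had levels of 8.6, 8.97 and 9.37 in high-dose knockouts, so that the groups did not overlap, a separation seen for 0.674% of genes. Aqp4, with levels of 8.26, 8.49 and 8.94 in high-dose knockouts and 8.70, 9.27 and 9.72 in low-dose knockouts, fell by 0.72 ± 0.12 (adjusted p = 2.23e-05), and 10 of 10 high-dose knockouts lay below the low-dose mean.

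Id3 had levels of 5.12, 5.71 and 6.01 in high-dose knockouts and fell by 0.64 ± 0.14 (adjusted p = 0.000518). Gpr37l1, at 9.08, 9.33 and 9.53 in high-dose knockouts, fell by 0.61 ± 0.11 (adjusted p = 3.61e-05). Cldn10, at 10.45, 10.65 and 10.99 in high-dose knockouts, fell by 0.59 ± 0.12 (adjusted p = 0.000226). For each of these genes all 10 high-dose knockouts lay below the low-dose knockout mean. Acsbg1, at 9.49, 9.65 and 9.95 in high-dose knockouts, fell by 0.53 ± 0.10 (adjusted p = 0.000168). The smaller falls were those of Htra1 (-0.41 ± 0.11), at 9.18, 9.35 and 9.99 in high-dose knockouts, and Gja1 (-0.33 ± 0.11), at 11.48, 11.76 and 12.1. After median scaling in place of quantile normalisation, Gja1, at -0.21, and Htra1, at -0.31, no longer passed. Gjb6 changed by -0.33 ± 0.15 and did not pass (adjusted p = 0.114).

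Gfap rose by 0.77 ± 0.17 in high-dose over low-dose knockouts (1.71-fold, adjusted p = 0.00109), with levels of 6.47, 7.34 and 8.10 in high-dose knockouts. S100b, at 6.12, 6.58 and 7.66 in high-dose knockouts, rose by 0.43 ± 0.10 (adjusted p = 0.0019). The S100b call was kept under 10 of 12 other settings, and without the chip in the model it did not pass (adjusted p = 0.104). Plpp3, at 10.92, 11.34 and 11.74 in high-dose knockouts, rose by 0.27 ± 0.09 (adjusted p = 0.0336) and kept its call under 6 of 12 other settings. Clu, at 12.11, 12.6 and 12.81 in high-dose knockouts and 11.06, 12.3 and 12.99 in low-dose knockouts, rose by 0.34 ± 0.12 (adjusted p = 0.0389). The Clu call was kept under 10 of 12 other settings (adjusted p up to 0.1655). It was also lost without low-dose knockout replicate 25, the lowest array, where the change was 0.21 ± 0.10 (adjusted p = 0.143). Etnppl did not pass between the doses in knockouts (-0.42, adjusted p = 0.307).

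**Figure D3:**
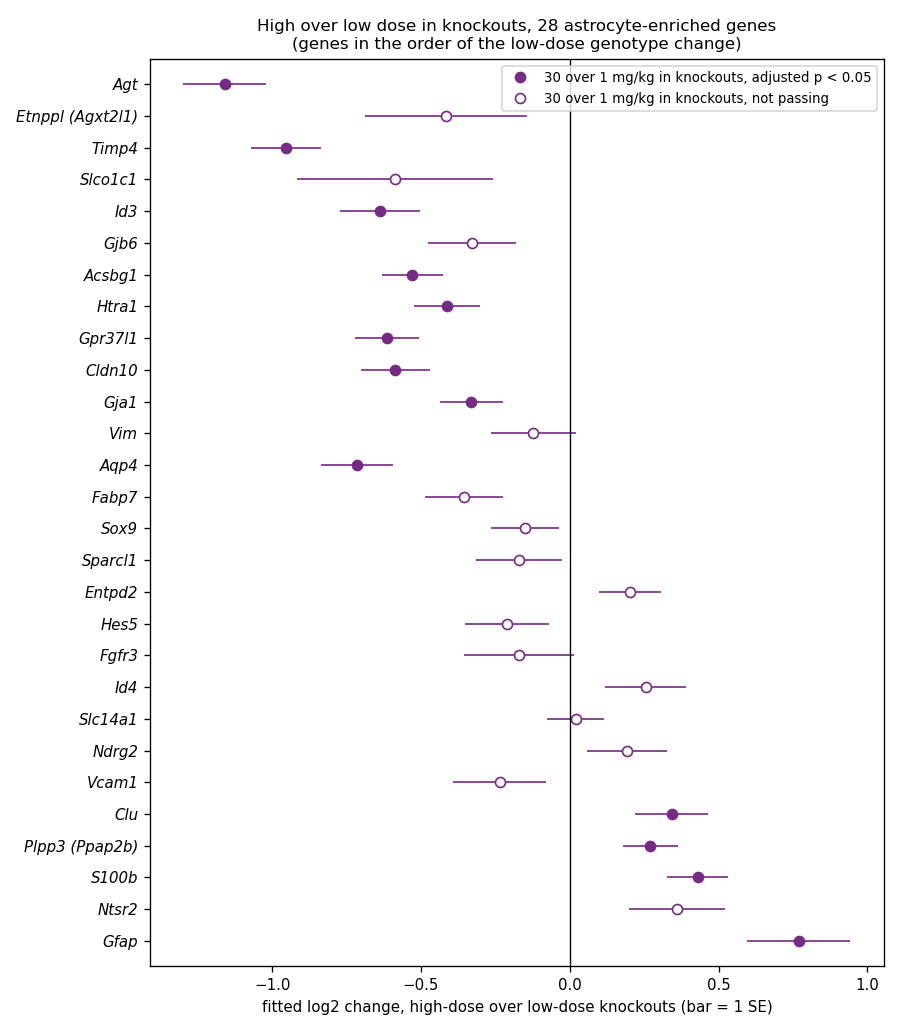
Fitted log2 change of the 28 tested genes in high-dose over low-dose knockouts (x axis, bars 1 standard error), with genes down the y axis in the order of their low-dose genotype change. Filled points passed an adjusted p of 0.05; of the 13 filled, 9 lie below 0, led by Agt at -1.16, and 4 above, led by Gfap at 0.77.

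Among wild types, 0 of the 28 genes and 0% of all tested genes were called in limma for low dose over untreated, high dose over untreated or high over low dose. At an unadjusted p under 0.05 the counts of astrocyte-enriched genes were 6, 1 and 0 for these 3 comparisons, beside 14.4%, 5.92% and 3.96% of all tested genes. The 6 were all higher at the low dose, and 22 of the 28 lay above 0 with a median of 0.17, against 0.01 over all genes. In the same comparison 15 of 15 microglia markers lay above 0 (median 0.38) and 0 of 9 neuron markers did (median -0.32), again with 0 called, and their part was not tested. Taking the mean of all probes of a gene called 3 genes for low dose over untreated, none of them an astrocyte-enriched gene. Of 13463 probes, 2 were called in that comparison without the chip term and 4 with the chip as a random effect. Gfap averaged 6.75 ± 0.39 in untreated, 7.22 ± 0.45 in low-dose and 7.37 ± 0.31 in high-dose wild types (SD, n = 9, 11 and 10). Its changes over untreated were 0.47 ± 0.18 at the low dose (adjusted p = 0.23) and 0.59 ± 0.18 at the high dose (adjusted p = 0.733), so neither passed.

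Low-dose knockouts, which are the same arrays as above, were also set against untreated wild types, whose Gfap levels were 6.07, 6.76 and 7.51. Gfap changed by -0.24 there and did not pass (adjusted p = 0.339). In that comparison 13 of the 28 genes rose and 1 fell, with 33.6% of all tested genes called, 15.4% rising and 18.3% falling. Agt (1.98 ± 0.15), Etnppl (1.66 ± 0.29) and Timp4 (1.13 ± 0.13) again had the largest values. All 4 tested junction and channel genes rose, Gjb6 by 0.74, Cldn10 by 0.67, Gja1 by 0.61 and Aqp4 by 0.46 ± 0.13 (adjusted p = 0.00482). Fgfr3 (0.51 ± 0.20, adjusted p = 0.0406) and Sox9 (0.35 ± 0.12, adjusted p = 0.023) rose as well, and S100b fell by 0.37 ± 0.11 (adjusted p = 0.00704). Among 12 other settings Fgfr3 kept its call in 8 (adjusted p up to 0.233), S100b in 9 (up to 0.159) and Sox9 in 10 (up to 0.21). Median scaling gave Aqp4 a change of 0.19 (adjusted p = 0.354) and Htra1 a change of 0.32 (adjusted p = 0.0734), neither of which passed. Ntsr2, Plpp3 and Slco1c1 did not pass against untreated wild types. In this comparison 8 of 9 neuron markers fell and 0 rose (median -0.86), 6 of 12 oligodendrocyte markers fell and 0 rose (median -0.35), and 4 of 15 microglia markers rose and 2 fell (median 0.16). Their part in the changes of the astrocyte-enriched genes was not tested.

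High-dose knockouts over untreated wild types gave 2 rises and 0 falls, with 1.07% of all tested genes called, 0.654% rising and 0.416% falling. Agt rose by 0.82 ± 0.15 (adjusted p = 0.00194), 10 of 10 knockouts lying above the untreated mean, and Etnppl rose by 1.24 ± 0.29 (adjusted p = 0.0242). Neither call held under all 12 other settings: Agt kept it in 11, with an adjusted p of 0.0523 when only the arrays compared were fitted, and Etnppl in 9, with adjusted p up to 0.147. Gfap changed by 0.53 ± 0.18 and did not pass (adjusted p = 0.143). Entpd2, at 7.71 ± 0.23 in high-dose knockouts and 7.34 ± 0.23 in untreated wild types (SD, n = 10 and 9), changed by 0.39 ± 0.11 (adjusted p = 0.0644).

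**Figure D4:**
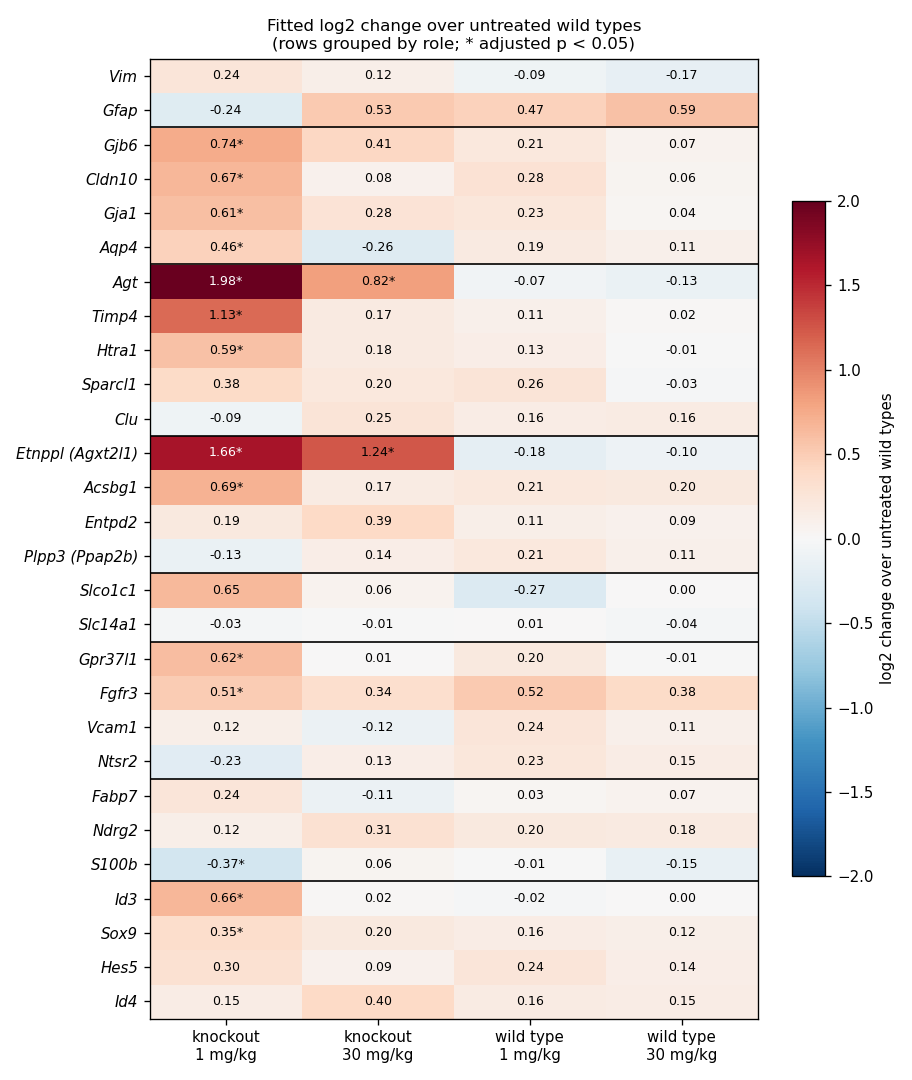
Fitted log2 change over untreated wild types of the 28 tested genes (rows, grouped by role) in low-dose and high-dose knockouts and low-dose and high-dose wild types (columns, which share the untreated arrays). Red is higher and blue lower than in untreated wild types, and an asterisk marks an adjusted p under 0.05; 14 cells of low-dose knockouts and 2 of high-dose knockouts carry one.

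In the low-dose genotype contrast 10.6% of all tested genes rose and 11.4% fell. Beyond the listed genes, 35 other astrocyte genes were tested there, of which 5 (14.3%) rose and 6 (17.1%) fell, with a median of 0.05. Those with the smallest p-values were the connexin Gjb2 (1.16 ± 0.15, adjusted p = 4.42e-08), Fjx1 (0.79 ± 0.15) and the growth factor receptor Fgfr2 (0.49 ± 0.11), which rose, and the glycine transporter Slc6a9 (-0.44 ± 0.11), which fell. Of 34 genes linked to reactive astrocytes, 22 were tested. Of the 22, 1 in low-dose, 5 in high-dose and 2 in untreated wild types were above background on no array. In either knockout group the number was 0, so such genes had little room to fall in knockouts. Of the 22 genes, 6 (27.3%) rose, 0 fell and 16 did not pass. The median of the 22 was 0.055, and 15 lay above 0. The risen genes included Lcn2 (1.46 ± 0.29), a secreted lipid carrier, Amigo2 (1.21 ± 0.16), an adhesion protein, Serpina3n (0.81 ± 0.18), a protease inhibitor, and Stat3 (0.31 ± 0.10), a transcription factor. The 22 genes lay near background on average in low-dose wild types, with a mean log2 level of 5.39. Signal in low-dose knockouts alone could carry a gene through the filter on dim probes. The filter can therefore favour rises over falls in this list, and its part was not tested. Gfap fell in the same comparison, but for this reason the list cannot serve as a contrast to that fall.

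Some markers of other cell types moved in the low-dose genotype contrast too, in which 10.6% of all tested genes rose and 11.4% fell. Of 9 neuron markers 4 fell and 0 rose, Camk2a by 0.60 and Syn1 by 0.63, with a median of -0.39. Their summed signal ran from 6631 to 11960 in low-dose knockouts, from 9224 to 15740 in high-dose knockouts, from 10840 to 19180 in untreated wild types and from 7169 to 16750 in low-dose wild types. Of 15 microglia markers 6 fell, with summed signals of 3901 to 6667 in low-dose knockouts, 3923 to 5271 in high-dose knockouts, 3467 to 5246 in untreated wild types and 3869 to 8318 in low-dose wild types. The microglia sum of low-dose knockouts thus had a median of 5098, between those of untreated (4760) and low-dose (6687) wild types. Of 12 oligodendrocyte markers 3 fell, with sums of 12350 to 34130 in low-dose knockouts and 19990 to 34590 in low-dose wild types. Falls also numbered 2 of 5 for oligodendrocyte precursors, 1 of 8 (12.5%) for vessel cells and 1 of 7 (14.3%) for choroid plexus and meninges. The shares for vessel cells and for choroid plexus and meninges were near that of all tested genes. No tested marker of these cell-type lists was below background throughout a group. The sum of the 28 astrocyte-enriched genes ran from 17990 to 33090 in low-dose knockouts (median 26450) and from 21480 to 28280 in high-dose knockouts (median 24420). In wild types it ran from 20400 to 30070 at the low dose (median 24700) and from 18760 to 25690 at the high dose (median 22400). Untreated wild types had sums of 19230 to 25420 (median 21120). Bright probes such as those of Clu and Gja1 weigh most in this sum. The part of these other cell types in the changes of the astrocyte-enriched genes was not tested.

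The arrays lay on 7 chips, 6 of which held low-dose knockouts together with low-dose wild types. Of the 15 genes called at the low dose, 13 had the same direction on all 6 chips. Htra1, with differences of -0.23 to 0.97, and Gpr37l1, with -0.09 to 0.90, had it on 5. Agt and Etnppl had the same direction on all 6 chips at the high dose too. In high-dose over low-dose knockouts, 8 of the 13 called genes had the same direction on all 6 chips and Gja1, S100b, Plpp3, Clu and Htra1 on 5. The genes were called on these same arrays with the chip in the model, so the directions by chip are not separate support.

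Variation between mice of the same group was compared for 6 pairs of related genes, as residuals after group and chip over all 50 arrays. Gja1 and Gjb6, whose channels couple astrocytes, varied together (Pearson r = 0.75, permutation p = 1e-05, the smallest that 100000 resamples can give, adjusted over the 6 pairs 6e-05; Spearman rho = 0.72, p = 1e-05). Without the 2 arrays farthest from the median of Gja1, r was 0.70. Pairs of genes outside the list were not compared, and the part of array quality or astrocyte content in this r was not tested. Agt and Etnppl, which shared the largest genotype changes, had r = 0.32 (permutation p = 0.0217, adjusted p = 0.065) and rho = 0.19 (p = 0.186), and r was 0.18 without the 2 farthest arrays. The other pairs did not pass: Gfap with Aqp4 (r = 0.19, permutation p = 0.19, rho = 0.19), Gfap with Vim (r = 0.12, p = 0.415, rho = 0.06), Id3 with Id4 (r = 0.04, p = 0.778, rho = 0.14) and Sox9 with Hes5 (r = -0.02, p = 0.881, rho = -0.10).

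**Figure D5:**
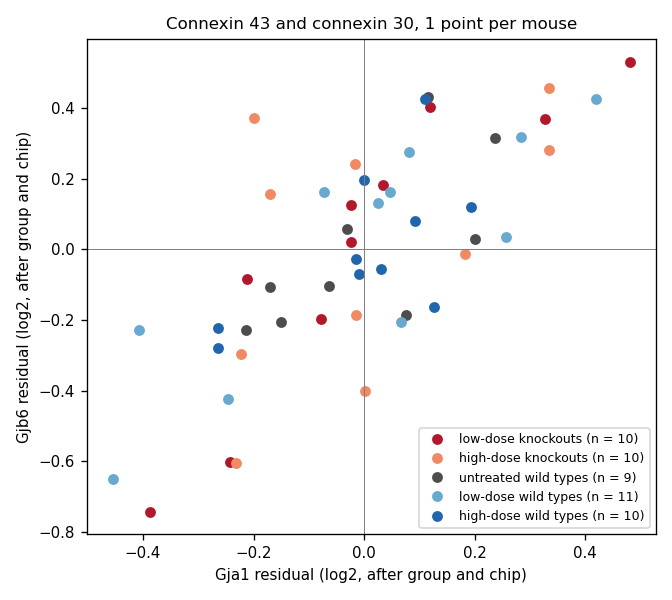
Residual log2 levels of Gja1 (x axis) and Gjb6 (y axis) after the group and chip means were removed, 1 point per mouse and 1 colour per group. The points of all 5 groups run along a shared rising band, with r = 0.75 over 50 arrays.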

How the data were processed

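Per the labels' protocols, RNA extracted with Trizol was amplified in 1 round and hybridised to Illumina bead arrays. Per the file headers, a table the authors deposited gives each probe's intensity as its average signal over beads, for 25697 probes and 50 arrays. The authors' deposited value table holds normalised log2 values with array medians near 6.02 to 6.03 whose method the labels and files do not state, and it served as an alternative. In limma 3.58.1 (R 4.3.3), signals were background-corrected with normexp (saddle point, offset 16, fitted on all probes, since no control probes or detection p-values were used here), quantile normalised and log2 transformed. Background was the lower peak of an array's signals, and a probe counted as above it beyond 1.645 SD. The filter kept probes above it on 9 or more arrays. A model with group and chip as fixed terms was fitted with empirical Bayes moderation (39 residual degrees of freedom), and p-values were Benjamini-Hochberg adjusted over 13463 probes. The number of arrays limits the precision. Each array is a separate mouse. The listed genes, the other lists and the tests were chosen with earlier results of these data known, so they are not independent of them. All listed genes are named, and levels are given for those called between genotypes, in the interaction or between doses in knockouts. These levels do not cover every group, and for many genes those of high-dose and untreated wild types are left out. From other lists, at most 4 called genes with the smallest p-values are named. Correlations used 100000 permutations (scipy). Alternatives were other background corrections, scalings, filters, chip terms, probe summaries and array sets.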

Additional observations from a re-analysis of the deposited data

Results flagged for a closer look

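Dixon's gap test was applied to 28 genes in the groups of 9 or 10 mice, 112 groups of values in all, and 6 values on 5 arrays stood apart. Chance alone marks about 1 in 20 such groups. In low-dose knockouts these were the highest Slco1c1 level (9.38, replicate 23, next 7.90), the lowest Clu level (11.06, replicate 25, next 11.96), the highest Timp4 level (10.79, replicate 27, next 10.13) and the highest Entpd2 level (8.18, also replicate 27, next 7.64). In high-dose wild types they were the lowest Fgfr3 level (6.63, replicate 20, next 7.25) and the lowest Plpp3 level (10.83, replicate 11, next 11.21). Without replicate 27, the low-dose genotype change of Timp4 was 0.89 (adjusted p = 1.05e-07).

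The genotype change differed between the doses, by the interaction test in limma, for 6 genes. High dose minus low dose was -1.10 for Agt, -0.87 for Timp4, -0.66 for Id3, -0.64 for Aqp4, -0.51 for Acsbg1 and 0.57 for S100b.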

How the results depend on the processing

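No paired analysis was possible because the replicate numbers of the labels run on across the groups and no number is shared. Under 12 alternatives, genes called as risen or fallen kept direction and call in 166 of 180 refits for the low-dose genotype contrast, 23 of 24 for the high dose, 61 of 72 for the interaction, 142 of 156 for dose in knockouts, 157 of 168 for low-dose and 20 of 24 for high-dose knockouts over untreated wild types, and no called change reversed. Counts of called genes ranged from 12 to 15 at the low dose, 4 to 6 for the interaction and 11 to 14 for dose in knockouts. Without the 5 dimmest arrays 1 gene was called in place of 2 at the high dose. For high-dose knockouts over untreated wild types the count was 1 with an offset of 50, 1 without the 5 dimmest arrays and 0 with only the arrays compared. The cause was not tested. Without the chip term, r was -0.028 for Id3 with Id4 and 0.021 for Sox9 with Hes5. In refits chosen after seeing the data, uncalled changes reversed for Plpp3 at the high dose (-0.011 without high-dose wild type replicate 11), Clu in low-dose knockouts over untreated wild types (0.03 without low-dose knockout replicate 25) and Entpd2 at the low dose (-0.022 without low-dose knockout replicate 27). Entpd2 in high-dose over low-dose knockouts passed without replicate 27 (0.28, adjusted p = 0.0441). Median scaling moved the median change over all 13463 probes from 0.009 to -0.091 for low dose over untreated in wild types. For low-dose knockouts over untreated wild types it moved that median from 0.01 to -0.083. Dim probes such as Etnppl, Fabp7 and Slc14a1 lie near background on many arrays, which limits their folds.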
